A study of Caenorhabditis elegans with 7 samples.

Results

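The Notch pathway genes of Caenorhabditis elegans described here are the receptor genes lin-12 and glp-1, the ligand genes lag-2 and apx-1, the co-ligand genes osm-7, osm-11, dos-1, dos-2 and dos-3, and lag-1, which encodes the transcription factor of the pathway and is neither receptor nor ligand. They were chosen by name, 10 genes in all, and 7 of them had a 3′ UTR entry among the 27909 genes with entries. The genes lag-2, dos-2 and dos-3 had no entry that could be joined to them and are not analysed here. Whole L4 larvae were profiled by SLAM-ITseq, in which new RNA of chosen cells takes up fed 4-thiouracil and labelled bases, once alkylated, are sequenced as C in place of T (T>C). The hypodermal strain BN1190, with FLP recombinase driven in the hypodermis by the dpy-7 promoter, gave 3 libraries (hypodermal FLP), and strain BN1158, with no FLP, gave 4 libraries (control). Animals of both strains were grown for 28 h at 20 °C and then fed 4-thiouracil in DMSO for 17 h. Each library pooled the larvae of 3 plates. The labels name no further allele or transgene of either strain, so the gene that FLP switches is not described here.

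In Notch signalling a ligand on a neighbouring cell binds the receptor, proteases cut the receptor, and its released inner part joins LAG-1 on DNA to switch on target genes. In the worm, secreted proteins with a DOS motif act beside the membrane-bound ligands of the DSL family (named for Delta, Serrate and LAG-2). GLP-1 keeps germline stem cells dividing, LIN-12 acts in cell choices of the gonad and the vulva, and OSM-11 is secreted by epidermal cells and promotes LIN-12 signalling in vulval precursor cells.

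Reads counted in genes numbered 18985660 to 61942117 in the hypodermal FLP libraries and 5041278 to 51990916 in the control libraries, with control replicate 2 the shallowest. Of gene reads, 3.35% to 3.76% carried T>C in hypodermal FLP libraries and 2.63% to 4.58% in controls, with the highest value in control replicate 2. Replicate 1 of each strain has no flow cell named in its file header, and the headers of the other 5 libraries name a flow cell. The labels do not say that replicates came from separate cultures, so p-values measure the spread between these libraries, which may be technical. No molecular identifiers are named, so intervals of single libraries cover counting error only. Summed germline marker reads were 1634 to 1668 CPM (reads scaled to a common library size) in hypodermal FLP and 1450 to 2779 CPM in control libraries, and hypodermis marker reads were 1625 to 1976 CPM in hypodermal FLP and 1133 to 1794 CPM in control libraries. None of the 13 germline and 11 hypodermis markers was at 0 in any library.

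Total reads did not separate the strains for any of these genes in the test used. In edgeR's quasi-likelihood test over 12465 genes with a mean of at least 20 reads, 2 genes (0.016%) passed an adjusted p of 0.05, and both, the antimicrobial peptide gene nlp-27 and the transporter gene pgp-6, were lower in hypodermal FLP. DESeq2 called 24 genes, 9 higher and 15 lower, and edgeR called 0 with the flow cell libraries alone, and 0 or, without control replicate 2, 1 when a library was left out in turn. Of the 7 Notch genes tested, 0 passed after adjustment and 0 had an unadjusted p under 0.05, either by edgeR or by DESeq2, against 2.28% of all genes by edgeR at the unadjusted level. By direction, 0.73% of all genes were higher at the unadjusted level and 1.55% lower by edgeR, and 0.81% higher and 2.37% lower by DESeq2. Of the 7, 4 had a log2 fold above 0 and 3 below, with a median of 0.10 beside −0.01 over all genes. In whole larvae, fewer cells of a type and less RNA per cell cannot be told apart.

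**Figure D1:**
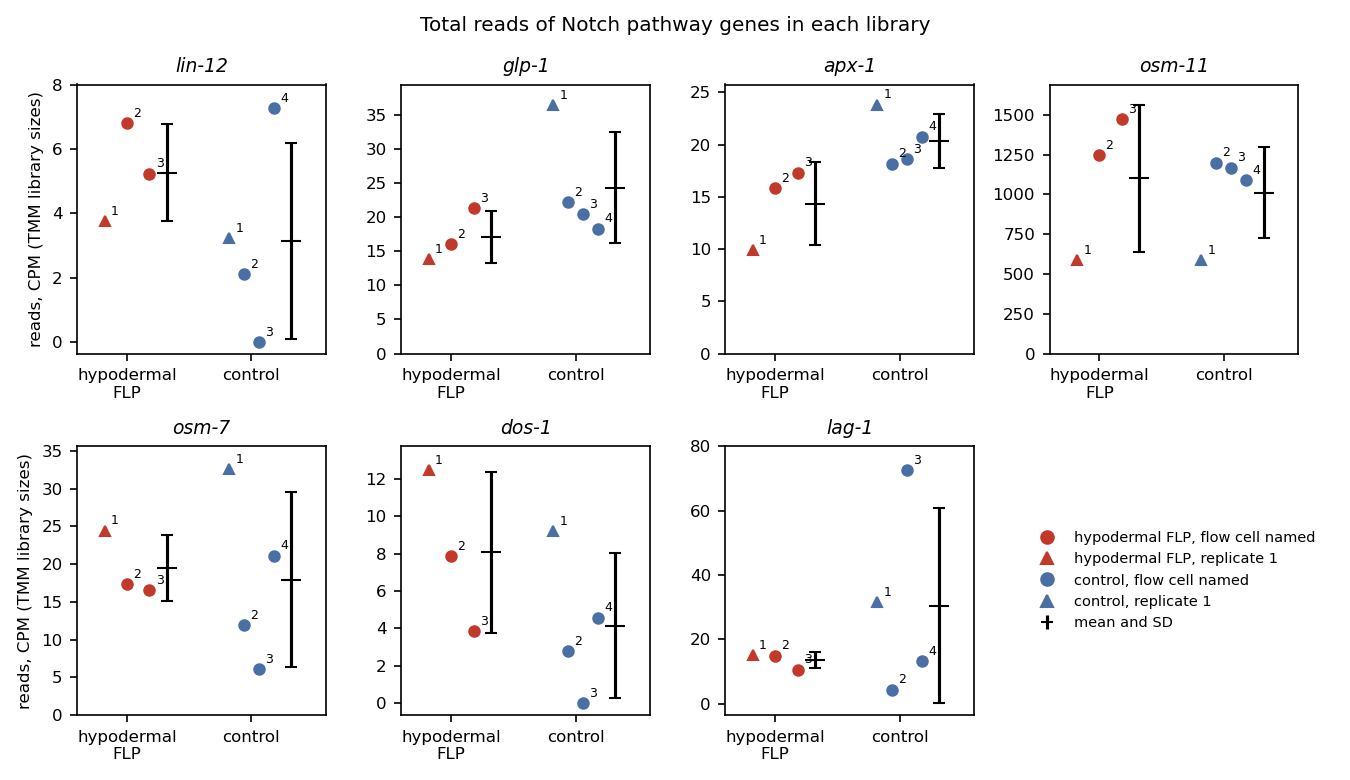
Reads in CPM (y axis, scaled by TMM library sizes) of 7 Notch pathway genes in 3 hypodermal FLP and 4 control libraries, numbered by replicate, with triangles for replicate 1 and bars for mean and SD. For apx-1 the hypodermal FLP points, up to 17.3 CPM, lie below the control points, from 18.2 CPM, and for the other 6 genes the groups overlap.

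The receptor gene lin-12 was among the least read of these genes. Its counted 3′ UTR lies on chromosome III from 9060222 to 9060401 (WBcel235, minus strand), with a further entry of 5 bases that held 0 reads. It had 256, 135 and 100 reads in hypodermal FLP replicates 1 to 3, which is 3.77, 6.80 and 5.24 CPM. Control replicates 1 to 4 had 185, 9, 0 and 149 reads, which is 3.22, 2.10, 0 and 7.27 CPM. The control group held both the highest and the lowest library, and the 0 in control replicate 3 allows up to 0.363 CPM at that depth. This bound covers counting error only. Control replicate 3 had reads in 11081 genes, the fewest of the 7 libraries, against 13526 in the shallower control replicate 2. The bound may thus be too low. The log2 fold of hypodermal FLP over control was 0.71 (SE 1.02, edgeR adjusted p = 1.00), less than its own error. Leaving out control replicate 4 gave 1.54, and leaving out control replicate 3 gave 0.30. Markers of vulva and somatic gonad, where LIN-12 is known to act, summed to 79.5 to 101 CPM in hypodermal FLP and 56.3 to 75.1 CPM in controls. Of the 8 such markers tested 0 passed and 7 had a log2 fold above 0, beside 49.3% of all genes tested. These markers were sparsely read: of 10 listed, 9 had an entry, and 5 of those were at 0 in some library. The part of these markers in the lin-12 values was not tested.

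The receptor gene glp-1 (chromosome III, 3′ UTR 9099333 to 9099698, plus strand) had 13.8, 16.1 and 21.3 CPM in hypodermal FLP replicates 1 to 3. The controls had 36.4, 22.1, 20.5 and 18.3 CPM in replicates 1 to 4. The control range was set by replicate 1, and hypodermal FLP replicate 3 lay above 2 of the 4 controls. The log2 fold was −0.51 (SE 0.37, edgeR adjusted p = 1.00). Between the replicate 1 libraries alone the log2 difference was −1.39, whereas the libraries with a named flow cell averaged 18.7 CPM in hypodermal FLP and 20.3 CPM in controls. Of 13 germline markers 11 had a log2 fold below 0 and 0 passed, where 49.3% of all genes tested lay above 0. The summed germline marker reads of the groups overlapped, and their part in the glp-1 values was not tested.

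The DSL ligand gene apx-1, whose product signals to GLP-1 between blastomeres of the early embryo, was the gene whose groups did not overlap. It had 9.89, 15.9 and 17.3 CPM in hypodermal FLP replicates 1 to 3, against 23.8, 18.2, 18.6 and 20.8 CPM in control replicates 1 to 4. Its means were 14.4 ± 3.94 CPM in hypodermal FLP (SD, n = 3) and 20.4 ± 2.58 CPM in controls (SD, n = 4), a log2 fold of −0.51 (SE 0.35). The unadjusted p was 0.179 and the edgeR adjusted p 1.00, and of all genes tested 4.86% had groups without overlap. The gap between the nearest libraries, 17.3 and 18.2 CPM, was small beside the spread within either group. These counts include reads of the last 73 bases of the entry, which are described with the label below. In control replicate 2 there were 44 such reads, beside 34 reads that touched the rest of the entry. The groups were not compared without the end reads, so the lack of overlap carries their limit.

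Among the co-ligand genes, osm-11 held far more reads than any other gene of the set, 163394 over the 7 libraries. Its counted 3′ UTR is on chromosome X from 17420211 to 17420755 (minus strand). Hypodermal FLP replicates 1 to 3 had 586, 1245 and 1471 CPM, and control replicates 1 to 4 had 588, 1199, 1168 and 1087 CPM. Replicate 1 of each strain was the lowest library of its group, at a nearly equal level in both strains. Among the libraries with a named flow cell, the means were 1358 CPM in hypodermal FLP and 1151 CPM in controls. The log2 fold over all libraries was 0.12 (SE 0.36, edgeR adjusted p = 1.00). Without the replicate 1 libraries it was 0.22 with an edgeR adjusted p of 0.999, and it changed sign when control replicate 1 or hypodermal FLP replicate 3 was left out, to −0.09 and −0.14.

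The genes whose reads most resembled those of osm-11 across the 7 libraries were F20D1.3 (Pearson r = 0.988 of log2 CPM), cytb-5.2 (r = 0.986), a cytochrome b5 gene, and hsp-70 (r = 0.976), a heat shock gene, out of 12464 genes. These are descriptions over 7 libraries, of which the 2 replicate 1 libraries, the deepest, were low for each of these genes. F20D1.3 had 138 CPM in hypodermal FLP replicate 1 and 131 CPM in control replicate 1, with 208 to 279 CPM in the other 5 libraries. For hsp-70 the replicate 1 values were 5.27 CPM in hypodermal FLP and 6.08 CPM in control, against 19.8 to 31.4 CPM elsewhere. Seam cell markers, from the epidermal stem cells, also summed lowest in these 2 libraries, to 53.3 CPM in hypodermal FLP replicate 1 and 51.4 CPM in control replicate 1, against 65.7 to 114 CPM in the others. Hypodermis markers did not follow this split, with 1625 CPM in hypodermal FLP replicate 1 and 1180 CPM in control replicate 1. The same split held for intestine markers, with 6678 CPM in hypodermal FLP replicate 1 and 7176 CPM in control replicate 1, against 7907 to 10365 CPM in the others. For neuron markers the 2 libraries had 590 CPM in hypodermal FLP and 559 CPM in control, against 727 to 1013 CPM, so the split was not particular to seam cell genes. The part of these markers in the osm-11 values was not tested.

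The co-ligand gene osm-7, known like osm-11 for mutants that resist osmotic stress, had 24.4, 17.4 and 16.5 CPM in hypodermal FLP replicates 1 to 3. Control replicates 1 to 4 had 32.6, 11.9, 6.05 and 21.1 CPM, so the controls enclosed all hypodermal FLP values. Here replicate 1 was the highest library of each strain, the opposite of osm-11. The log2 fold was 0.10 (SE 0.51, edgeR adjusted p = 1.00). Its counted entry lies on chromosome III from 13580481 to 13580601, and a second entry, from 13580540 to 13580662, overlaps it. When both were summed the log2 fold was 0.25.

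The DOS-motif gene dos-1 (chromosome III, 3′ UTR 9106685 to 9106805, plus strand) had 12.5, 7.86 and 3.87 CPM in hypodermal FLP replicates 1 to 3. The controls had 9.22, 2.80, 0 and 4.59 CPM in replicates 1 to 4. As for osm-7, replicate 1 was the highest library of each strain, and control replicate 3 had 0 reads. The log2 fold was 0.93 (SE 0.99, edgeR adjusted p = 1.00), with 1.67 without control replicate 1 and 0.48 without hypodermal FLP replicate 1.

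The transcription factor gene lag-1 (chromosome IV, 3′ UTR 6110115 to 6110639, plus strand) had the lowest estimate of the set. It had 15.2, 15.0 and 10.6 CPM in hypodermal FLP replicates 1 to 3, a narrow range. Control replicates 1 to 4 had 31.7, 4.43, 72.6 and 13.2 CPM, and so lay both above and below it. The log2 fold was −1.17 (SE 0.71, unadjusted p = 0.126, edgeR adjusted p = 1.00). Control replicate 3, at 72.6 CPM, carried much of this: without it the log2 fold was −0.29. The same library had the highest germline marker sum, 2779 CPM, and the highest body wall muscle sum, 18926 CPM against 7913 to 12260 CPM in the other libraries. Without control replicate 2, the lowest library, the log2 fold was −1.50, with an unadjusted p of 0.0190 and an edgeR adjusted p of 1.00. This was the only fit of lag-1 reads with an unadjusted p under 0.05. In the same fit 194 genes were higher and 293 lower at that level, of 12607 tested.

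The second comparison was of label: the share of a gene's reads with T>C in the libraries with hypodermal FLP against the control background. It was tested with edgeR on labelled and unlabelled reads of 9822 genes with at least 20 mean reads and 10 T>C reads in total. Of all genes 0 (0.0%) passed the adjusted threshold, and limma on log2 odds also called 0. At an unadjusted p under 0.05 edgeR gave 281 higher (2.86%) and 40 lower (0.407%), or 205 higher and 67 lower after centring each library on its pooled odds. Of the 6 Notch genes tested 0 passed and 0 had an unadjusted p under 0.05 by edgeR. By limma 0 passed and 1 had an unadjusted p under 0.05, dos-1, which was lower and whose control replicate 3 was dropped for want of reads. Over all 9822 genes limma gave 2.62% higher and 1.13% lower at that level. The median log2 odds ratio of the 6 was 0.34 and 5 lay above 0, beside a median of 0.54 and 70.0% of genes above 0 over all 9822 (a median of 0.30 after centring). The authors' deposited table of 198 genes with raised conversion holds 0 of these genes. With 27909 genes with entries here, 198 is a small share, so the absence of a few named genes says little about them. Per its name that table used an FDR of 10% and a minimum of T>C, which are not the cut-offs used here. Genes with few T>C reads, such as lin-12, may not have been eligible for it.

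**Figure D2:**
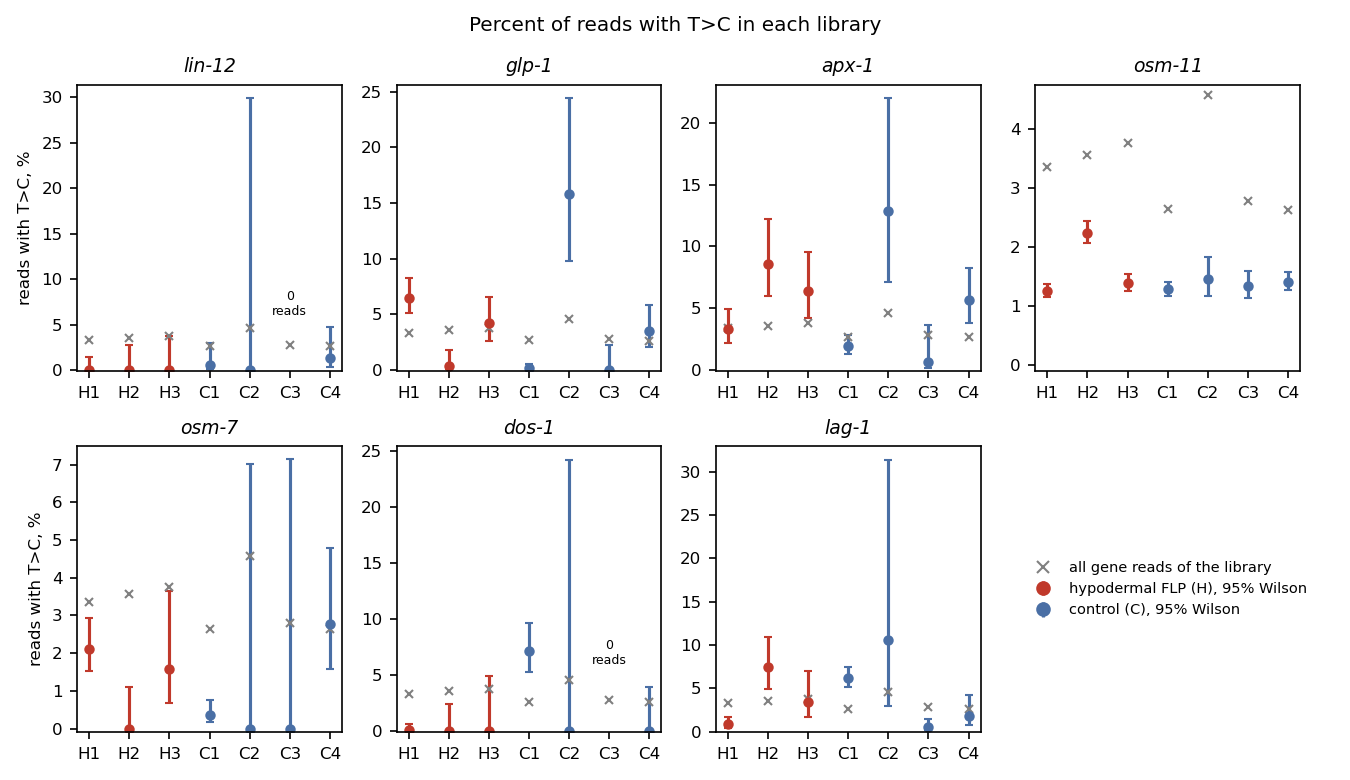
Percent of reads with T>C (y axis) of 7 Notch pathway genes in hypodermal FLP (H) and control (C) libraries with 95% Wilson intervals, and grey crosses for all gene reads of the library. Values of osm-11 lie between 1.25% and 1.46% in 6 libraries and at 2.25% in H2, apx-1, glp-1 and lag-1 vary between libraries of both strains, lin-12 stays at or near 0%, and dos-1 is raised in C1.

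With its depth, osm-11 gave the closest measurement of label. It carried T>C in 1.25%, 2.25% and 1.39% of reads in hypodermal FLP replicates 1 to 3, with 95% Wilson intervals of 1.15 to 1.37, 2.07 to 2.44 and 1.26 to 1.54. Control replicates 1 to 4 had 1.28%, 1.46%, 1.35% and 1.41%. Hypodermal FLP replicate 2 stood above the other 6 libraries beyond counting error, replicate 1 lay below the controls, and replicate 3 lay within their range. The log2 odds ratio was 0.20 (SE 0.33, edgeR adjusted p = 1.00), and −0.06 without hypodermal FLP replicate 2. In each of the 7 libraries osm-11 lay below the T>C share of all gene reads. It lay below the median tested gene in all 3 hypodermal FLP libraries and in 2 of 4 controls, but above it in control replicate 1 (median gene 0.870%) and control replicate 3 (0.145%). Counted per covered T, which allows for base composition, its conversion was 0.0615% ± 0.0184 in hypodermal FLP (SD, n = 3) and 0.0499% ± 0.00629 in controls (n = 4).

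For osm-11 a second, shorter entry ends 34 bases before the counted entry. In the last 34 bases of the longer entry 0.0747% of covered Ts were converted in the pooled hypodermal FLP libraries and 0.0534% in the pooled controls. In the remaining 511 bases it was 0.0534% in the pooled hypodermal FLP libraries and 0.0489% in the pooled controls. The end was converted more than the rest in 6 of 7 libraries, with control replicate 4 the exception, at 0.0489% in the end and 0.0585% in the rest. Some differences were slight. Control replicate 2 had 0.0450% in the end, from 16 converted Ts, and 0.0442% in the rest, and control replicate 1 had 0.0486% and 0.0440%. No test was made of this split.

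The share of apx-1 reads with T>C was 3.27%, 8.57% and 6.34% in hypodermal FLP replicates 1 to 3. Control replicates 1 to 4 had 1.90%, 12.8%, 0.649% and 5.63%, and so enclosed all hypodermal FLP values. The log2 odds ratio was 0.72 (SE 1.56, edgeR adjusted p = 1.00), with 1.41 without control replicate 2 and 0.14 without control replicate 3. These T>C reads came almost wholly from the end of the 3′ UTR. The counted entry runs on chromosome V from 3222450 to 3223218 (plus strand), and a shorter one ends at 3223145, so reads of the longer entry alone lie within or past its last 73 bases.

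Of such end reads 65 of 403 carried T>C in the hypodermal FLP libraries (16.1%) and 55 of 380 in the controls (14.5%). By library the share was 11.5%, 19.7% and 19.6% in hypodermal FLP replicates 1 to 3, and 11.1%, 22.7%, 0% and 27.3% in control replicates 1 to 4, where the 0 was of 43 reads. Of the reads that touched the shorter entry, 5 of 915 carried T>C in hypodermal FLP libraries (0.546%, 95% Wilson interval 0.234 to 1.27) and 6 of 1646 in controls (0.365%, 0.167 to 0.793). The high share at the end was thus present in 3 of 3 hypodermal FLP and 3 of 4 control libraries, without FLP as with it. This split was chosen after the values were seen, and no test was made of it. Label at this end cannot be told apart here from a base that differs from the reference or from misplaced reads. The apx-1 shares and odds ratio above carry the same limit, and the apx-1 CPM holds the same end reads, which may be misplaced.

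**Figure D3:**
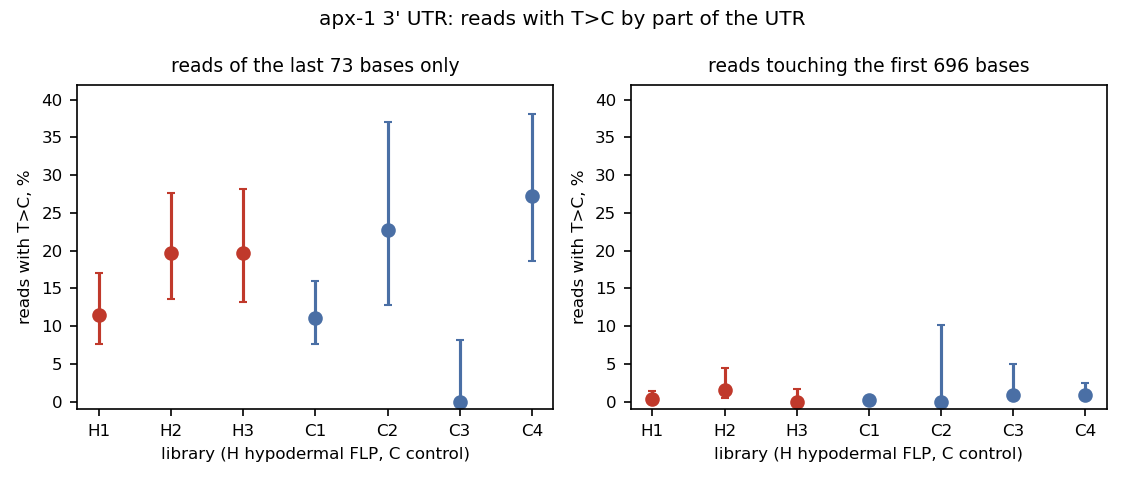
Percent of apx-1 reads with T>C (y axis, 95% Wilson intervals) by library, for reads that lie only in the last 73 bases of the 3′ UTR entry or past it (left) and for reads that touch its first 696 bases (right). On the left 6 libraries lie between 11.1% and 27.3% and control replicate 3 at 0%, and on the right all 7 lie at 1.55% or less.

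In glp-1 the T>C share was 6.49%, 0.313% and 4.18% in hypodermal FLP replicates 1 to 3, from 61, 1 and 17 reads. In control replicates 1 to 4 it was 0.192%, 15.8%, 0% and 3.47%, from 4, 15, 0 and 13 reads. Both groups held libraries near 0 and libraries at several percent, and the highest value was a control. The log2 odds ratio was 0.87 (SE 1.71, edgeR adjusted p = 1.00). With reads pooled by strain the shares were 4.74% in hypodermal FLP and 1.17% in controls, but 61 of the 111 T>C reads were from hypodermal FLP replicate 1, which held 21.4% of the gene's reads.

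The receptor gene lin-12 had too few T>C reads for the test. Hypodermal FLP libraries held 0 among 491 reads, which allows a share of up to 0.611%, and control libraries held 3 among 343 reads (0.875%, 95% Wilson interval 0.298 to 2.54). Both limits pool reads over libraries as if independent, so they cover counting error only and not the spread between libraries. The bound for hypodermal FLP lies below the 3.35% to 3.76% of all gene reads in those libraries. The control interval likewise lies below the 2.63% to 4.58% of all gene reads in the controls. It does not lie below the median tested gene throughout. That median was 0.870%, 2.86%, 0.145% and 1.92% in control replicates 1 to 4, and control replicate 1 held 185 of the 343 reads.

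In osm-7 35, 0 and 5 reads carried T>C in hypodermal FLP replicates 1 to 3, which is 2.11%, 0% and 1.59%. In control replicates 1 to 4 there were 7, 0, 0 and 12, which is 0.374%, 0%, 0% and 2.77%. Each strain held a library with 0, the control range enclosed the hypodermal FLP values, and the log2 odds ratio was 0.49 (SE 1.75, edgeR adjusted p = 1.00).

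Labelled reads of dos-1 were nearly confined to 1 control library. Hypodermal FLP replicates 1 to 3 had 1, 0 and 0 T>C reads among 847, 156 and 74 reads. Control replicate 1 had 38 among 529 (7.18%, 95% Wilson interval 5.28 to 9.71), control replicates 2 and 4 had 0 among 12 and 94, and control replicate 3 had no read of the gene. Over the 7 libraries the 39 T>C reads held 39 converted Ts. The log2 odds ratio of −3.94 (SE 3.09, unadjusted p = 0.202, edgeR adjusted p = 1.00) rested on that library, and without it dos-1 fell under the filter on T>C reads.

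The lag-1 reads carried T>C in 0.874%, 7.41% and 3.45% of cases in hypodermal FLP replicates 1 to 3 and in 6.21%, 10.5%, 0.500% and 1.85% in control replicates 1 to 4. The highest and the lowest value were both controls, and the highest was a share of only 19 reads. Of its 161 T>C reads 113 (70.2%) were from control replicate 1, which held 42.9% of its reads. The log2 odds ratio was 0.05 (SE 1.70, edgeR adjusted p = 1.00).

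More than 50% of the T>C reads were thus held by 1 library for glp-1, osm-7, dos-1 and lag-1, that is for 4 of the 6 genes tested. Over all 9822 genes tested, 45.0% had more than 50% of their T>C reads in 1 library. The T>C reads of these genes had 0.910 to 1.05 converted Ts each, beside 0.914 over all genes.

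Other genes of the pathway were read from a list of 41, of which 33 had an entry. In total reads 26 were tested, 0 passed edgeR's adjusted threshold, 0 had an unadjusted p under 0.05 by edgeR or DESeq2, 8 had a log2 fold above 0 and 18 below, and their median was −0.11. Over all genes tested, 49.3% had a log2 fold above 0. The F-box gene sel-10, which lowers Notch activity, had 59.5 ± 15.0 CPM in hypodermal FLP and 58.6 ± 11.9 CPM in controls. The ± values here and for the genes that follow are SD (n = 3 and n = 4). The cofactor gene emb-5 had 62.7 ± 6.47 CPM in hypodermal FLP and 64.4 ± 22.1 CPM in controls. The smallest p was that of ark-1, a reported target that lowers epidermal growth factor signalling, with a log2 fold of −0.66 (SE 0.35, unadjusted p = 0.0810, edgeR adjusted p = 1.00). It had 22.5, 15.7 and 19.5 CPM in hypodermal FLP replicates 1 to 3, against 36.3, 19.4, 27.8 and 38.1 CPM in control replicates 1 to 4. The groups overlapped, since hypodermal FLP replicate 1 and replicate 3 lay above control replicate 2.

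The germline stem cell gene lst-1, a known target of GLP-1, had 49.4 ± 14.1 CPM in hypodermal FLP and 58.8 ± 21.6 CPM in controls, a log2 fold of −0.25 (SE 0.37, edgeR adjusted p = 1.00). Its partner sygl-1 had 0.298 ± 0.318 CPM in hypodermal FLP and 0.845 ± 1.22 CPM in controls, with 152 of its 212 reads in control replicate 1. Of the other DSL genes with entries, dsl-6 had 0 reads in all libraries, dsl-2 and dsl-3 were under the filter, and dsl-7 had a mean of 1.05 CPM in hypodermal FLP and 1.06 CPM in controls. The HES-related target genes hlh-26 and hlh-27 held 0 and 2 reads over all libraries, and hlh-25, hlh-28 and hlh-29 had no entry. The counts hold 0 reads placed at more than 1 site, so low counts may also reflect read placement, which was not tested.

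For label 23 of the 33 were tested, and 0 passed edgeR's adjusted threshold or had an unadjusted p under 0.05. Of these 16 had a log2 odds ratio above 0 and 7 below, with a median of 0.49 beside 0.54 over all genes. By limma 0 passed and 1 had an unadjusted p under 0.05, sel-12, which was higher, beside 2.62% of all genes higher by limma. The gene sel-12 encodes presenilin, the cutting subunit of gamma-secretase, which frees the inner part of the receptors. It is named here because it is the single gene of the list in the authors' deposited table. That table holds 198 genes, beside 27909 genes with entries here. Its mean sel-12 conversion was 0.600% in hypodermal FLP and 0% in controls, with an authors' adjusted p of 0.0920.

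The sel-12 3′ UTR (chromosome X, 918160 to 918290, plus strand) had T>C in 49 of 408, 24 of 56 and 2 of 56 reads in hypodermal FLP replicates 1 to 3, which is 42.9% in replicate 2 and 3.57% in replicate 3. In control replicates 1 to 4 it was 1 of 174, 0 of 6, 0 of 39 and 0 of 34 reads. Each hypodermal FLP library lay above each control, as for 6.35% of genes tested in either direction. The log2 odds ratio was 5.18 (SE 2.74, unadjusted p = 0.0585, edgeR adjusted p = 1.00), with few control reads behind it. Total reads of sel-12 were 3.92 ± 1.81 CPM in hypodermal FLP and 2.70 ± 1.52 CPM in controls. Of the 5 gamma-secretase genes tested, 4 had a log2 odds ratio above 0, with aph-1 at 2.35 (SE 2.09), pen-2 at 1.38 (SE 1.49) and the second presenilin gene hop-1 at 0.26 (SE 2.32), and aph-2, the nicastrin gene, was at −0.73 (SE 1.53).

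**Figure D4:**
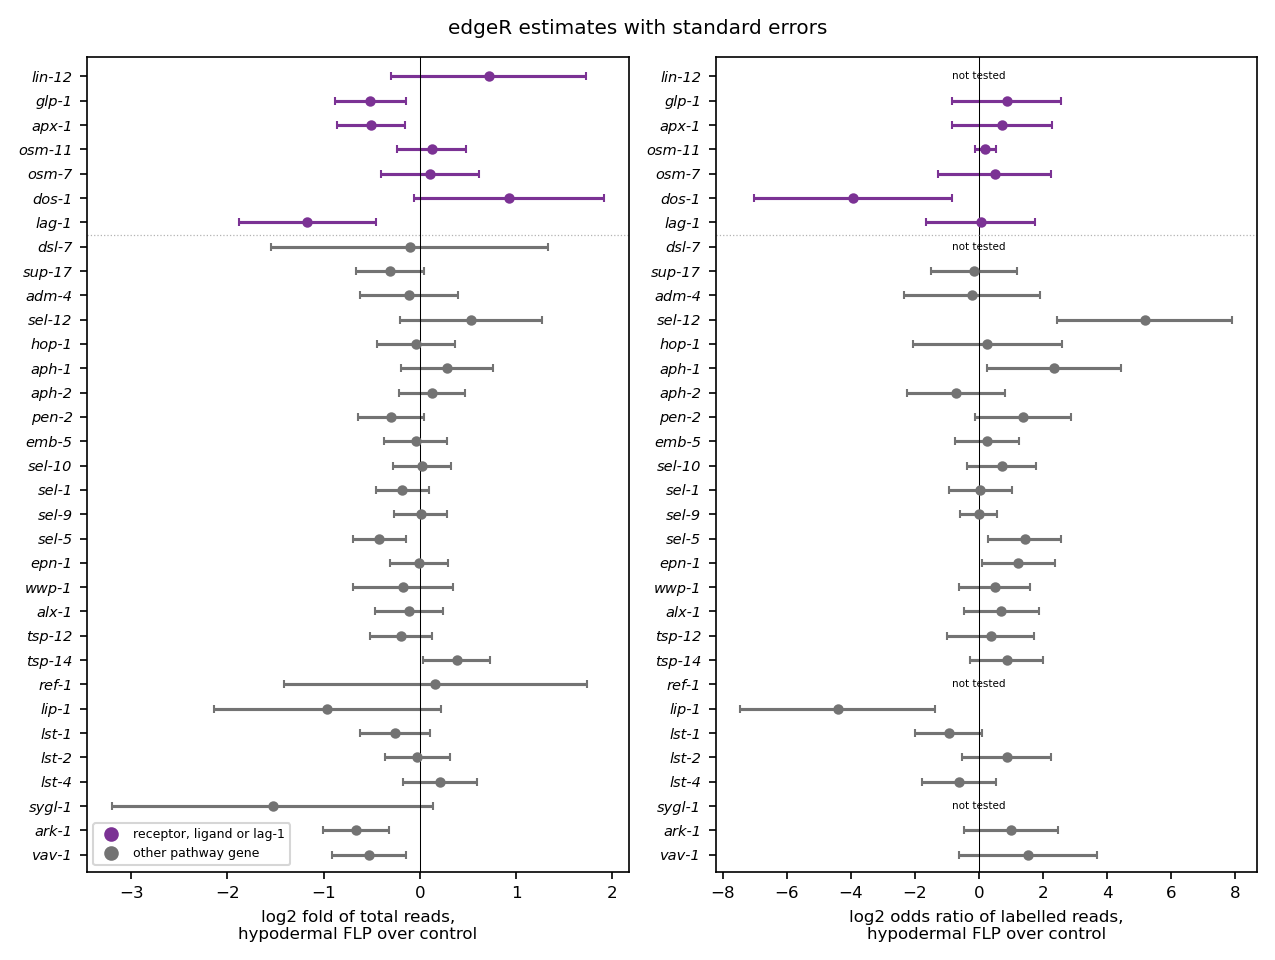
Log2 fold of total reads (left) and log2 odds ratio of labelled reads (right), hypodermal FLP over control, for Notch receptor, ligand and lag-1 genes (purple) and other pathway genes (grey), with edgeR standard errors. None passed an adjusted p of 0.05 in either test, and the estimate farthest above 0 on the right is sel-12 at 5.18.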

How the data were processed

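The members and lists were chosen with earlier results of these data known. Per the file headers, the authors counted reads, reads with T>C, covered Ts and converted Ts per 3′ UTR entry of WBcel235 with slamdunk 0.4.3, and these deposited counts were used as given. The submitters' processing notes name ce10 and DESeq2 without a role. The headers and labels do not state trimming, the T>C minimum per read or variant masking. Of 14 member entries, 13 directly followed the annotated stop codon of WBcel235. The authors' deposited table gives p-values, adjusted p-values and the mean conversion fraction per strain. Its 21 columns of single libraries were not used. Per the labels' protocols, libraries were made with a 3′ kit, so CPM was not divided by length and levels are compared within a gene.

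Entries were joined to genes by transcript name (42202) or sequence name (4816). Another 21, with 0.00444% of reads, had no gene and were left out. Of overlapping entries of a gene, the one with the most reads was kept. None of the genes named as members shares its UTR with another gene. Gene reads were 5041278 to 61942117 per library. edgeR 4.0.16 in R 4.3.3 tested reads (TMM, mean of 20 or more) and labelled against unlabelled reads (a term per library), with Benjamini-Hochberg adjustment over all genes. Limma 3.58.1 (0.5 added to counts) and DESeq2 1.42.0 were alternatives. The edgeR tests of reads and of label were also run on simulated data, and the other steps were not. CPM uses TMM library sizes. SE is the log2 estimate over the root of F. Genes named were the members, other pathway genes with unadjusted p under 0.05 (none by edgeR) and the 3 genes most like the most-read member; ark-1, sel-12, sel-10, emb-5, lst-1, sygl-1, aph-1, pen-2, hop-1 and aph-2 were named after their values were seen, as were the few-read dsl and hlh genes. The markers of muscle, intestine, neurons and pharynx were read as well, and 0 of 8 passed the test of reads in each of these 4 lists. Figures used matplotlib 3.10.9, with Python 3.11.15, pandas 2.3.3, NumPy 2.4.6 and SciPy 1.17.1.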

Additional observations from a re-analysis of the deposited data

Results flagged for a closer look

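Of the control groups of 4 libraries examined for a library far from the others, 1 stood out. The share of osm-7 reads with T>C was 2.77% in control replicate 4 and 0% to 0.374% in the other 3 controls, a gap of 0.865 of the whole range. It rests on 12 T>C reads among 433. For normally distributed values chance alone marks about 1 in 20 such groups, and 12 groups were examined. Shares from few reads, some of them exactly 0%, need not follow that rate.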

How the results depend on the processing

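The number of Notch genes called stayed at 0 in both tests under every alternative run. The smallest adjusted p of a member over them was 0.993 for total reads (12 alternatives) and 0.775 for label (up to 13). Over all genes, total reads gave 2 calls and DESeq2 24 (9 higher, 15 lower), the replicate block 0 and the flow cell libraries alone 0, with 0 to 1 when a library was left out in turn. Label gave 0 calls, and 0 to 20 with a library left out, the 20 without control replicate 2 and 1 without control replicate 4. Log2 folds of reads changed sign for osm-11 without control replicate 1 (−0.09) or hypodermal replicate 3 (−0.14), and for osm-7 without control replicate 2 (−0.03), control replicate 3 (−0.18) or hypodermal replicate 1 (−0.09). Log2 odds ratios of label changed sign for osm-11 (−0.02 centred on pooled odds, −0.06 without hypodermal replicate 2), for glp-1 (−1.16 in flow cell libraries, −0.32 without control replicate 1) and for osm-7 (−0.33 by limma, −0.95 in flow cell libraries, −0.16 and −0.35 without control and hypodermal replicate 1). For lag-1 they were −0.22 centred, −0.09 by limma, −0.33 with the replicate block, −0.74 and −0.22 without control replicates 3 and 4, and −0.72 and −0.10 without hypodermal replicates 2 and 3. With a library left out in turn, the log2 fold of reads reached 0.55 for osm-7 and 0.41 for osm-11, and the log2 odds ratio reached 2.30 for glp-1, 1.79 for osm-7, 1.41 for apx-1, 0.37 for osm-11, 0.89 for lag-1 and −5.26 for dos-1 (without control replicate 4). The cause was not tested. Same-numbered libraries deviated together by r = 0.364, 0.0954 and −0.0771, so the numbers were not taken as pairs, and with the replicate block the log2 fold of reads was 2.23 for lin-12 and 2.0 for dos-1, and the log2 odds ratio was 1.79 for glp-1, 2.67 for osm-7 and −5.52 for dos-1. Not every library correlated best with its own number. Without a filter, lin-12 had a log2 odds ratio of −3.37 (adjusted p = 0.990). The labelled reads of dos-1 could not be tested in the flow cell libraries or without control replicate 1, since too few T>C reads were left. Few reads limit the label of most members: lin-12 had 834 reads and 3 T>C reads over all libraries.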
